A study of Homo sapiens with 3 samples.

Results

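Lysosomes are acidic organelles that digest proteins, lipids, glycans and nucleic acids, and endosomes carry taken-up material to them. Glycosylated membrane proteins line the lysosome, cathepsins and other hydrolases work in its lumen, and a proton pump, the V-ATPase, acidifies it by coupling ATP cleavage in a cytosolic V1 sector to proton flow through a membrane V0 sector. Small GTPases of the Rab family mark the endosomes on the way. Peptide nucleic acids (PNAs, DNA analogues with a peptide-like backbone) are taken up in part through endosomes, the route for which these genes were chosen. The members are 39 listed lysosomal and endosomal genes together with every gene whose symbol begins with ATP6V0 or ATP6V1, read by each probe set that names 1 gene alone. The rule found 100 of 22277 probe sets, which name 54 of 11963 genes. GLB1 and ATP6V1F were represented by probe sets shared with another gene and were not analysed here.

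RH30, an established alveolar rhabdomyosarcoma cell line, had been given 10 µM of a PNA against MYCN, 10 µM of a mutated PNA, or no PNA, and RNA was taken at 12 hours. All cells grew in RPMI medium with foetal bovine serum. Each condition was 1 array, 3 in all, so no difference given here has a replicate error or a test, and 3 arrays limit how precise any of them can be. The labels of the array called untreated conflict, since its source name gives mutated PNA where its title and treatment text give no treatment, and every comparison with that array rests on the title.

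The TFEB family of transcription factors is known to bind a short palindrome, TCACGTGA, near the start of many lysosomal genes, and its centre, CACGTG, is also the E-box that MYC and MYCN bind with MAX. RefSeq promoter windows of GRCh38.p14, from 250 bases before to 50 bases after a gene's start, were found for 40 of the 54 members. Both motifs read the same on either strand, and the second lies inside the first. TCACGTGA stood in 8 of the 40 genes (20%), against 1.18% of all 27305 genes and 2.62% of the measured genes with a window. Counted by window, it stood in 0.980% of all 35116. CACGTG stood in 14 of the 40 (35.0%), against 8.77% of all genes, 13.9% of the measured genes and 7.26% of all windows. The 8 genes with the longer motif were ATP6V0D1, ATP6V1G1, CLN3, CTSA, GAA, LAMP1, MCOLN1 and RAB5A, and GAA, LAMP1 and MCOLN1 held it 2 times. Sites upstream of the start follow, with the motif in capitals and 20 bases on each side, 5′ to 3′ on the gene's strand. They lie at chr17:80101484-80101531 on the plus strand for GAA, chr13:113297190-113297237 on the plus strand for LAMP1, chr19:7522562-7522609 on the plus strand for MCOLN1, chr20:45891289-45891336 on the plus strand for CTSA, chr3:19946955-19947002 on the plus strand for RAB5A, chr9:114587690-114587737 on the plus strand for ATP6V1G1 and chr16:67481190-67481237 on the minus strand for ATP6V0D1.
GAA: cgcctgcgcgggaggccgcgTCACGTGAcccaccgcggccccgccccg
LAMP1: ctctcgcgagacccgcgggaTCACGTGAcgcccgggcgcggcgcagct
MCOLN1: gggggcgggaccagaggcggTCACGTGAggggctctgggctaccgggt
CTSA: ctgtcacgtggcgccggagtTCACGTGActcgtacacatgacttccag
RAB5A: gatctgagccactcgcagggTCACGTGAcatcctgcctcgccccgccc
ATP6V1G1: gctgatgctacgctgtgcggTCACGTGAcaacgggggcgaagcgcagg
ATP6V0D1: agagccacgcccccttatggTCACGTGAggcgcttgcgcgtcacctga
A match is a description of these letters and not evidence of binding in RH30 cells.

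The signals were linear intensities, and a gene was measured when the mean of its brightest probe set over the 3 arrays reached 117, the pooled median. Of the 54 member genes 45 passed this filter, alongside 6745 genes in all. Anti-MYCN PNA cells had no member at least 2-fold higher or 2-fold lower than both controls, where 1.16% and 1.26% of all genes were. At 1.5-fold, 5 of the 45 members (11.1%) were higher than both controls, GAA, RAB5B, ATP6V0C, ATP6V0A1 and CTSF, against 8.27% of all genes. CTSF passed the filter only through its anti-MYCN PNA signal, and without it 4 of 44 were higher. Only 2 members (4.44%) were as much lower, CTSS and ATP6V1C1, against 7.37%. Both shares are near the background. Counted at any size, 28 members lay above both controls and 13 below, which is 62.2% and 28.9% against 47.9% and 37.6% of all genes. The median log2 difference over the members was 0.12 to mutated PNA and 0.12 to untreated, against 0.062 and 0.065 over all genes. With each array scaled to the same median the median over all genes became −0.11 and −0.14 and that over the members −0.053 and −0.079, and 16 members (35.6%) then lay above both controls and 23 (51.1%) below, against 32.3% and 52.9% of all genes. That scaling moves all genes alike, so the direction of these counts depends on it and is no trait of the members.

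**Figure D1:**
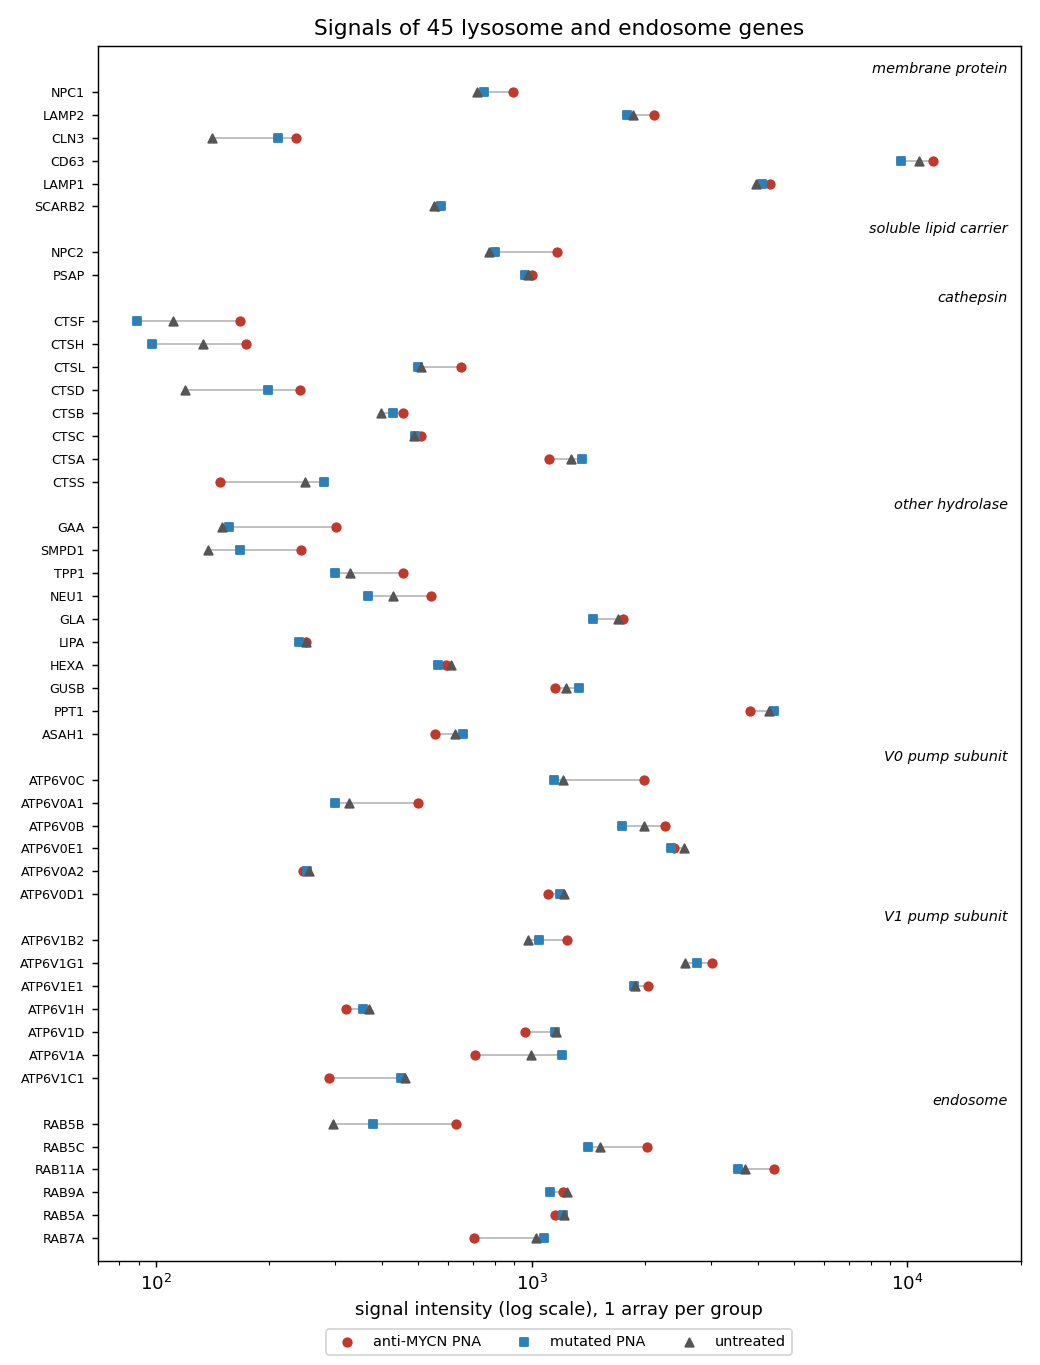
Signal intensity (log axis) of each of the 45 measured member genes on the anti-MYCN PNA, mutated PNA and untreated array, grouped by role, 1 point per array; the grey line spans the 3 arrays. GAA, RAB5B and ATP6V0C have their anti-MYCN PNA point to the right of both controls and CTSS, ATP6V1C1 and RAB7A to the left.

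The array of anti-MYCN PNA cells differed from the controls in its spikes. All 24 probe sets for bacterial poly-A spikes were lower there than in either control, with a median ratio of 0.382 to mutated PNA and 0.410 to untreated. The ratio of 3′ to 5′ signal for ACTB, a sign of RNA integrity, was 1.99 in anti-MYCN PNA cells, 1.73 with mutated PNA and 2.11 in untreated cells. For GAPDH it was 1.09, 1.02 and 1.02 in the same order. The part of the spikes or of these ratios in the differences below was not tested. The targeted gene, MYCN, read 2202 in anti-MYCN PNA cells, 2804 with mutated PNA and 3313 in untreated cells by its brightest probe set. All 8 markers of muscle lineage and alveolar rhabdomyosarcoma were measured, MYOD1 at 7834, 6266 and 6715 in the same order. Of the defining leukocyte markers, PTPRC read 34.0, 3.6 and 1.5 and CD14 35.0, 3.7 and 21.7, and 2 of 10 listed leukocyte markers passed the filter, as did 0 of 3 osteoclast markers on the array, 1 of 8 fibroblast and 1 of 6 epithelial markers. The only background for a difference is the one between the controls, taken over 10 classes of genes with like signal. In 95% of genes that difference was at most 0.94 on the log2 scale in the dimmest class and 0.28 in the brightest. Members lay further than this from both controls in 5 cases above (11.1%) and 4 below (8.89%), against 11.0% and 10.6% of all genes. They were GAA, RAB5B, ATP6V0C, ATP6V0A1 and NPC2 above, and CTSS, ATP6V1C1, RAB7A and ATP6V1A below.

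Membrane proteins of the lysosome lay close to the controls by their brightest probe sets. Of 6 measured, 5 were above both controls and none below, and the largest difference to the nearer control was 0.26 for NPC1. Over all genes 47.9% were above both and 37.6% below, the background also for the roles that follow. The count depends on the probe set: by the middle value of its probe sets past the filter, LAMP2 was 1.5-fold lower than both controls. The median log2 difference was 0.20 to mutated PNA and 0.16 to untreated. CD63, a tetraspanin of late endosomes and lysosomes, read 11691 in anti-MYCN PNA cells, 9643 with mutated PNA and 10754 in untreated cells. LAMP1, a heavily glycosylated protein of the lysosomal membrane, read 4302 against 4109 and 3946 in the same controls. Neither gene was more than 1.21-fold from a control, and under quantile normalization CD63 lay between the controls. With the arrays scaled to the same median only NPC1 stayed above both, and LAMP1 and SCARB2 lay below. NPC1, which passes cholesterol out of the lysosome, read 892 in anti-MYCN PNA cells, 747 with mutated PNA and 716 in untreated cells. SCARB2, the receptor that carries glucocerebrosidase to lysosomes, read 564, 572 and 549 in the same order by its brightest probe set, between the controls. Its other probe set past the filter was below both controls, at 176 in anti-MYCN PNA cells, 225 with mutated PNA and 281 in untreated cells. CLN3, a membrane protein mutated in juvenile Batten disease, read 236 in anti-MYCN PNA cells and 211 with mutated PNA, against 141 in untreated cells. On this probe set both PNA arrays were above untreated, by log2 differences of 0.75 for anti-MYCN PNA and 0.58 for mutated PNA, in comparisons that share the untreated array. Its other probe set past the filter read 220 in anti-MYCN PNA cells, 111 with mutated PNA and 137 in untreated cells, so mutated PNA was below untreated there, by −0.30, and only anti-MYCN PNA was above untreated on both.

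LAMP2, a membrane protein needed for fusion of autophagosomes with lysosomes, gave opposite answers by probe set. Its brightest probe set read 2120 in anti-MYCN PNA cells, 1790 with mutated PNA and 1860 in untreated cells. The next read 1038 in anti-MYCN PNA cells, against 2214 with mutated PNA and 2113 in untreated cells. The third read 730 against 994 and 979. The second was lower than mutated PNA by a log2 difference of −1.09 and than untreated by −1.03, and it was the only member probe set past the filter that was 2-fold from both controls. LAMP2 is spliced into transcripts with different last exons. The platform annotation pairs the second with another RefSeq transcript than the first and the third, which share one and still differ in direction.

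The soluble lipid carriers were NPC2, which hands cholesterol to NPC1, and PSAP, the precursor of the saposins that help enzymes reach glycolipids. NPC2 read 1169 in anti-MYCN PNA cells, 801 with mutated PNA and 772 in untreated cells. That was 1.46-fold mutated PNA and 1.52-fold untreated, further from both than 95% of control differences of like signal, at most 0.42 on the log2 scale. PSAP read 1004, 960 and 979 in the same order by its brightest probe set, and 461, 628 and 651 by the other.

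Cathepsins lay on both sides of the controls. Of 8 measured, 6 were above both controls and 2 below, with a median log2 difference of 0.19 to mutated PNA and 0.27 to untreated. CTSS, a cysteine protease known mainly from antigen-presenting cells, read 148 in anti-MYCN PNA cells, against 280 with mutated PNA and 250 in untreated cells, which is 53.0% and 59.5% of them. It was the member furthest below both controls, and its dimmer probe set, below the filter, read 36.1 against 64.1 and 62.9. The leukocyte markers together summed to 1301 in anti-MYCN PNA cells, 946 with mutated PNA and 906 in untreated cells over 10 genes, most of it from LAPTM5, a lysosomal protein itself, and ITGB2, with 8 of the 10 below the filter. Their part in the CTSS value was not tested. In a lysate fewer cells of a type and less RNA per cell cannot be told apart.

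CTSF, a cysteine protease, lay furthest above both controls among the cathepsins, at 168 in anti-MYCN PNA cells, 89.2 with mutated PNA and 111 in untreated cells. Both control signals were below the filter of 117, so CTSF passed only through its anti-MYCN PNA value and had to differ. CTSH, an aminopeptidase, read 174, 97.5 and 134 in the same order. In the dimmest class, which holds both genes, 16.6% of genes were 1.5-fold above both controls and the controls differed by up to 0.94, so neither is beyond that range. CTSD, the main aspartic protease of lysosomes, read 243 in anti-MYCN PNA cells and 199 with mutated PNA, against 120 in untreated cells. It stood 2.03-fold above untreated and 1.22-fold above mutated PNA. CTSA, the carboxypeptidase that protects neuraminidase and beta-galactosidase, read 1111 in anti-MYCN PNA cells, 1363 with mutated PNA and 1270 in untreated cells. CTSL read 647, 499 and 506, and CTSC, which activates serine proteases of granules, read 508, 490 and 486. CTSB read 453 in anti-MYCN PNA cells, 427 with mutated PNA and 398 in untreated cells by its brightest probe set, and its 3 probe sets past the filter ran from −0.14 to 0.42 in log2 difference to mutated PNA. With the arrays scaled to the same median CTSB and CTSC lay below both controls.

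Among the other hydrolases GAA, SMPD1, TPP1 and NEU1 stood furthest above the controls, and GUSB, PPT1 and ASAH1 lay below them. Of 10 measured, 6 were above both controls and 3 below, with a median log2 difference of 0.17 to mutated PNA and 0.025 to untreated. GAA, the acid alpha-glucosidase that breaks down glycogen and is deficient in Pompe disease, was the member furthest above both controls. It read 302 in anti-MYCN PNA cells, against 156 with mutated PNA and 150 in untreated cells, which is 1.93-fold and 2.01-fold. Its log2 difference to the nearer control was 0.95 against a control range of 0.72 in its class, and 0.88 with quantile normalization and 0.78 with the arrays scaled to the same median. SMPD1, the acid sphingomyelinase, read 243, 167 and 138 in the order anti-MYCN PNA, mutated PNA and untreated. TPP1, a tripeptidyl peptidase mutated in late infantile Batten disease, read 455, 300 and 329 by its brightest probe set, and NEU1, the lysosomal sialidase, read 541, 367 and 427. These were between 1.27-fold and 1.76-fold above each control and within the control range of their classes against the nearer one. The other TPP1 probe sets past the filter were nearer to the controls. They gave log2 differences of 0.24 and 0.25 to mutated PNA, and 0.070 and 0.075 to untreated.

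GLA, alpha-galactosidase A, read 1754 in anti-MYCN PNA cells, 1457 with mutated PNA and 1696 in untreated cells. PPT1, a palmitoyl-protein thioesterase, read 3817, 4412 and 4289 in the same order, and GUSB, beta-glucuronidase, read 1155, 1337 and 1233. The last pair were thus lower than both controls, by at most 0.21 on the log2 scale against either. HEXA, the alpha subunit of hexosaminidase A, read 592 in anti-MYCN PNA cells, between 562 with mutated PNA and 610 in untreated cells. LIPA, lysosomal acid lipase, read 250.5 in anti-MYCN PNA cells, 240.5 with mutated PNA and 250.3 in untreated cells. With the arrays scaled to the same median GLA lay between the controls, and LIPA, HEXA and also PSAP lay below both. ASAH1, acid ceramidase, read 553, 658 and 625 by its brightest probe set, and its other probe sets past the filter disagreed, at 0.30 and −0.75 in log2 difference to mutated PNA. A filter at the 75th percentile of signal kept the brighter hydrolases alone and turned their median to −0.21 against mutated PNA and −0.094 against untreated. Over all genes, 16.6% of the dimmest class were 1.5-fold above both controls, and in the brightest 2.67%.

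**Figure D2:**
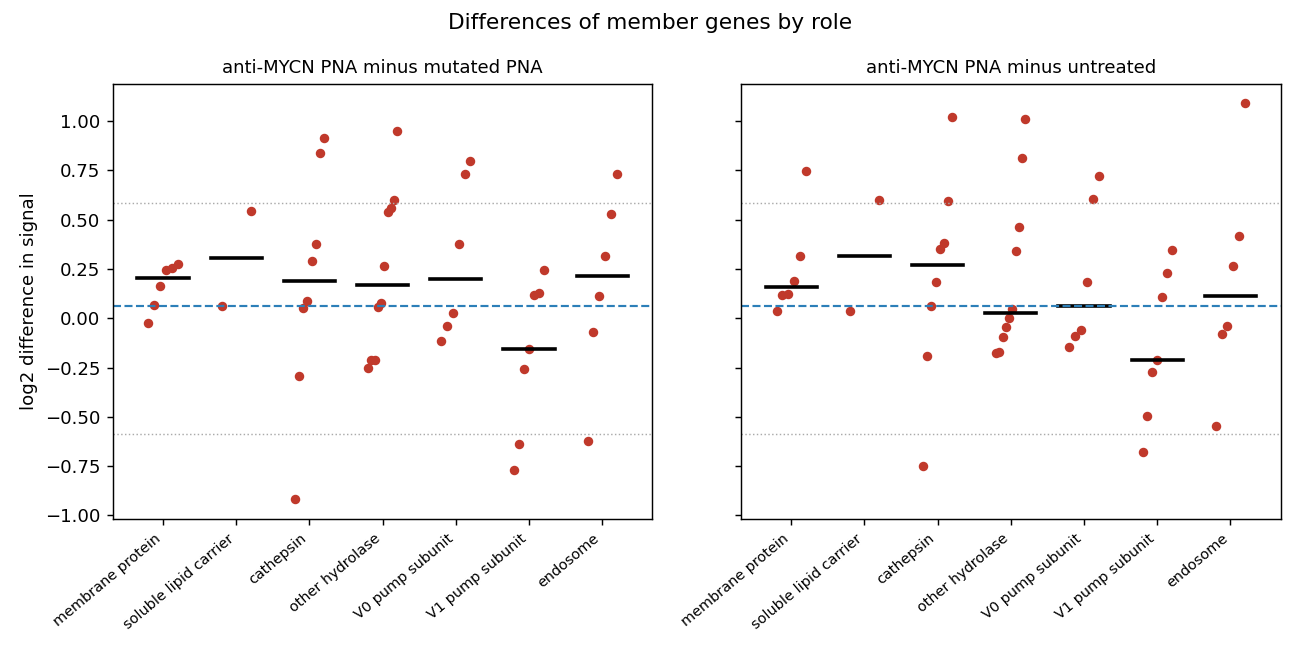
Log2 difference of each measured member gene by role, anti-MYCN PNA minus mutated PNA on the left and minus untreated on the right; each point is 1 gene, the black bar the median of the role, the dashed line the median of all genes and the dotted lines 1.5-fold. The V1 pump subunits are the role whose median is below 0 in both panels, at −0.16 and −0.21, and it turned to 0.12 and 0.11 with the filter at the 75th percentile.

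Subunits of the proton pump lay on both sides. Of 6 measured V0 subunits, 3 were above both controls, 2 below and 1 between, with a median log2 difference of 0.20 to mutated PNA and 0.062 to untreated. Of 7 measured V1 subunits, 3 were above both controls and 4 below, with a median of −0.16 to mutated PNA and −0.21 to untreated. That sign depends on the filter: with the filter at the 75th percentile the V1 median was 0.12 and 0.11, and with no filter 0.11 and −0.21. The difference between the sectors was not tested, and with the arrays scaled to the same median the V0 median was 0.030 and −0.14. ATP6V0C, the proteolipid that forms the proton-carrying ring, read 1995 in anti-MYCN PNA cells, 1147 with mutated PNA and 1211 in untreated cells, or 1.74-fold and 1.65-fold. Its second probe set was also higher, by 0.39 and 0.37 on the log2 scale. ATP6V0A1, an isoform of the large membrane subunit, read 498 in anti-MYCN PNA cells, 300 with mutated PNA and 328 in untreated cells. Both genes lay above both controls under every scaling, by at least 0.40 on the log2 scale.

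The other V0 subunits stayed nearer to the controls. ATP6V0B, another ring proteolipid, read 2264 in anti-MYCN PNA cells, 1744 with mutated PNA and 1996 in untreated cells. ATP6V0E1 read 2394, 2353 and 2545 in the same order, between the controls, and its 4 probe sets past the filter ran from −0.57 to 0.19 in log2 difference to mutated PNA. ATP6V0D1, which joins the ring to the central stalk, read 1103 against 1192 and 1218. ATP6V0A2, a second isoform of the membrane subunit, read 246, 253 and 256.

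In the V1 sector, ATP6V1C1, a stalk subunit, read 289 in anti-MYCN PNA cells, against 449 with mutated PNA and 462 in untreated cells. That was 64.3% and 62.6% of them, and its other probe set past the filter was lower too, by −0.35 and −0.61. ATP6V1A, the catalytic subunit that cleaves ATP, read 707 in anti-MYCN PNA cells, 1204 with mutated PNA and 996 in untreated cells. Its second probe set was lower by −0.23 and −0.35 on the log2 scale. ATP6V1D, of the central rotor, read 962, 1151 and 1164 in the same order, and ATP6V1H, which regulates the sector, read 320, 356 and 370. These 4 lay below both controls under every scaling. ATP6V1B2, the partner of the catalytic subunit in the ATP-cleaving ring, went the other way at 1241 in anti-MYCN PNA cells, 1046 with mutated PNA and 976 in untreated cells. ATP6V1G1, of the outer stalk, read 3015, 2758 and 2567, and ATP6V1E1, its stalk partner, 2037, 1877 and 1888, both within 1.17-fold of each control. With the arrays scaled to the same median ATP6V1E1 lay below both controls and ATP6V1G1 between them.

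Of 5 measured genes that assemble or accompany the pump, 1 lay above both controls and 4 below, where 47.9% and 37.6% of all genes did. Their median log2 difference was −0.59 to mutated PNA and −0.38 to untreated. ATP6AP1, an accessory protein of the pump, read 1410 in anti-MYCN PNA cells, against 894 with mutated PNA and 887 in untreated cells. DMXL1, a subunit of the rabconnectin complex that joins V1 to V0, read 53.9 against 145 and 189, and WDR7, of the same complex, read 216 against 358 and 366. DMXL2, a DMXL1 homologue, and ATP6AP2, the other accessory protein, were nearer to the controls, at −0.38 and −0.32 in log2 difference to the nearer one. Of the 5 measured genes of this list, 1 was 1.5-fold above both controls and 2 were 1.5-fold below. Over all genes these shares were 8.27% and 7.37%. DMXL1 belongs to the dimmest class.

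**Figure D3:**
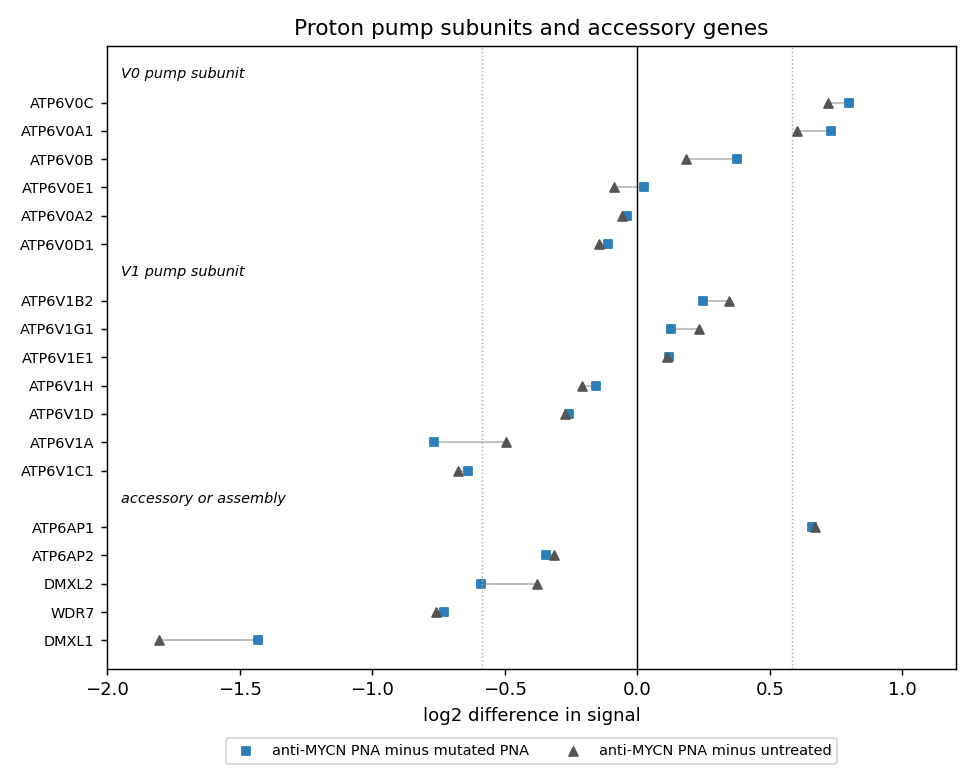
Log2 difference of anti-MYCN PNA cells to mutated PNA (squares) and to untreated cells (triangles) for the 13 measured pump subunits and 5 accessory or assembly genes; dotted lines mark 1.5-fold. ATP6V0C, ATP6V0A1 and ATP6AP1 lie right of the upper line and ATP6V1C1, WDR7 and DMXL1 left of the lower line against both controls.

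The endosomal Rabs differed among themselves, even within the RAB5 family, whose members mark early endosomes. RAB5B read 630 in anti-MYCN PNA cells, 379 with mutated PNA and 296 in untreated cells, or 1.66-fold and 2.13-fold. RAB5C read 2030, 1409 and 1517 in the same order by its brightest probe set, and its second probe set was higher too, by 0.28 and 0.27. RAB5A, the third paralogue, read 1153 in anti-MYCN PNA cells, 1211 with mutated PNA and 1220 in untreated cells by its brightest probe set. Its other probe set past the filter read 213, 297 and 242 in the same order. By their brightest probe sets RAB5B and RAB5C thus lay above both controls and RAB5A slightly below, under each scaling tried. RAB7A, which drives late endosomes to fuse with lysosomes, read 702 in anti-MYCN PNA cells, against 1081 with mutated PNA and 1026 in untreated cells. Its second probe set, of nearly the same mean signal, read 876, 870 and 962, so the lower value of RAB7A rests on 1 probe set. RAB11A, of recycling endosomes, read 4428, 3552 and 3687 by its brightest probe set, and a dimmer one read 281 in anti-MYCN PNA cells, against 472 and 418. RAB9A, which serves transport from late endosomes to the Golgi, read 1213, 1123 and 1246. The median over the 6 endosomal genes was 0.21 to mutated PNA and 0.11 to untreated. Standing each gene on the middle value of its probe sets past the filter turned these to −0.051 and −0.086.

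Probe sets of the same gene therefore matter for several members. For 17 measured members more than 1 probe set passed the filter, and in 10 (58.8%) all pointed the same way against mutated PNA, where 61.5% of 2179 such genes did over the whole array. The median spread between a gene's probe sets was 0.51 on the log2 scale for members and 0.40 over all genes. The genes with opposite signs were ASAH1, ATP6V0E1, CTSB, LAMP2, PSAP, RAB11A and RAB7A, with LAMP2 the widest at 1.34. CLN3 had 1 direction but log2 differences of 0.17 and 0.98 to mutated PNA.

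**Figure D4:**
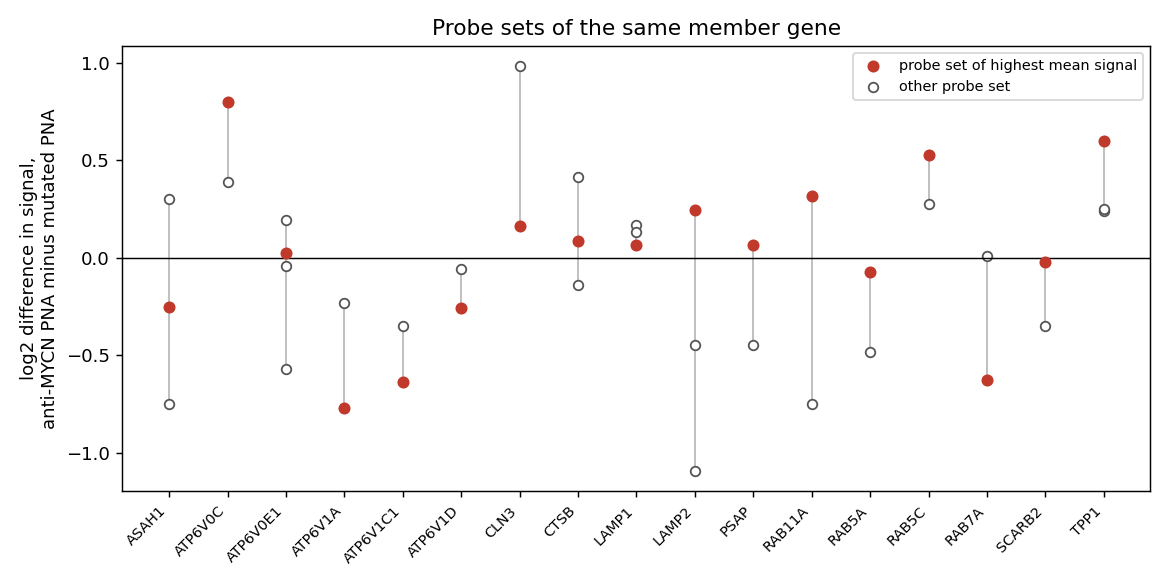
Log2 difference of anti-MYCN PNA minus mutated PNA for each probe set past the filter of the 17 member genes with more than 1; filled points are the probe set of highest mean signal, which stands for the gene, and open points the others. LAMP2 spans from −1.09 to 0.24 and LAMP1 only from 0.066 to 0.17.

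The 9 members that did not pass the filter were ARSA, ATP6V0E2, ATP6V1B1, ATP6V1G2, CTSK, CTSO, CTSZ, EEA1 and MCOLN1. MCOLN1, the calcium channel mucolipin-1 of the lysosomal membrane, lay just under it with a mean of 116.9, and read 174 in anti-MYCN PNA cells, 75.9 with mutated PNA and 101 in untreated cells. Of the members just above it, CTSF had a mean of 122.8 and CTSH of 135.1. CTSK, a collagen-degrading cathepsin of osteoclasts, read 125, 96.5 and 87.2, and ATP6V0E2 read 126, 115 and 70.5. EEA1, the tether of early endosomes, read 30 in anti-MYCN PNA cells, 50 with mutated PNA and 5 in untreated cells, and ARSA, arylsulfatase A, was under the floor of 23.4 on all 3 arrays. CTSZ read 89.2, 68.3 and 86.9, and ATP6V1G2 read 40.7, 37.7 and 51.8. CTSO read 55.8, 34.1 and 7.7, and ATP6V1B1 read 50.9, 13.6 and 8.7. Without a filter 8 of 54 members (14.8%, against 13.8% of all genes) were 1.5-fold above both controls, MCOLN1, CTSO and ATP6V1B1 joining the others, but ATP6V1B1 and CTSO were under the floor of 23.4 on at least 1 control array.

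Values of the members with and without the TFEB-type palindrome are given here with no test of their difference. The 7 measured carriers had a median log2 difference of 0.066 to mutated PNA and 0.12 to untreated, and the 27 other measured members with a promoter window 0.29 and 0.26. Over all measured genes the 149 carriers had medians of 0.019 and −0.014, and the 5539 others 0.063 and 0.065. GAA, LAMP1, CLN3 and ATP6V1G1 lay above both controls and CTSA, RAB5A and ATP6V0D1 below. The carrier MCOLN1, just under the filter, had log2 differences of 1.19 and 0.78 and is not in these medians. For the shorter E-box the medians were 0.22 and 0.21 in 12 members that hold it, and 0.26 and 0.19 in 22 that do not. TFEB itself did not pass the filter, at 231 in anti-MYCN PNA cells, 78.4 with mutated PNA and 19.4 in untreated cells by its brighter probe set. That untreated value is under the floor of 23.4. The dimmer probe set read 25.2, 13.7 and 6.2, under the floor on both control arrays. TFEB was singled out after its values were seen. Its relative TFE3 read 314, 400 and 225 in the same order by 1 probe set and 228, 108 and 112 by another, and MITF read 124, 134 and 146.

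Further genes of the pathway were taken from 9 lists. Lysosomal enzymes outside the member list had a median log2 difference of 0.36 to mutated PNA and 0.36 to untreated over 11 genes. Of these 7 were above both controls and 3 below, where 47.9% and 37.6% of all genes were. None was 1.5-fold from both, where 8.27% of all genes were above and 7.37% below. With the arrays scaled to the same median, the medians were 0.18 and 0.16. Then 7 were above and 4 below, against 32.3% and 52.9% of all genes, and 2 were 1.5-fold lower, against 13.7%. MAN2B1, the lysosomal alpha-mannosidase, read 614 in anti-MYCN PNA cells, 432 with mutated PNA and 381 in untreated cells. LGMN, the asparaginyl protease legumain, read 269 against 416 and 374. Further membrane and carrier proteins had a median of 0.35 and 0.39 over 11 genes, with CTNS, the cystine exporter, at 220 against 142 and 146. Of this list 8 genes lay above both controls and 2 below, where 47.9% and 37.6% of all genes did. At 1.5-fold 1 was above both and 1 below, where 8.27% and 7.37% of all genes were. The medians of the list were 0.18 and 0.19 with the arrays scaled to the same median. OSTM1, the partner of the chloride transporter CLCN7, was the 1 gene of that list at least 2-fold lower, against 1.26% of all genes. It read 239 in anti-MYCN PNA cells, 612 with mutated PNA and 618 in untreated cells. CLCN7 itself read 241, 234 and 197.

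Of 15 autophagy genes 11 were above both controls and 4 below, where 47.9% and 37.6% of all genes were, with medians of 0.26 and 0.27. With the arrays scaled to the same median 9 were above and 6 below, with medians of 0.085 and 0.067, against 32.3% and 52.9% of all genes. ATG9A, a lipid scramblase of the forming autophagosome, read 515 in anti-MYCN PNA cells, 289 with mutated PNA and 271 in untreated cells. It was the 1 gene of the list 1.5-fold above both controls, against 8.27% of all genes. MAP1LC3B, which is attached to autophagosome membranes, read 1210 against 808 and 771, and SQSTM1, a receptor for cargo, 1277 against 789 and 866. BECN1, ATG5, ATG12 and GABARAPL2 were the 4 below, with BECN1 at 590 in anti-MYCN PNA cells, 786 with mutated PNA and 843 in untreated cells. In the clathrin and endocytosis list 13 of 18 genes were above both controls and 5 below, with medians of 0.16 and 0.19. Over all genes 47.9% were above and 37.6% below. With the arrays scaled to the same median, 8 genes of the list were above and 8 below, against 32.3% and 52.9% of all genes. CLTB, a clathrin light chain, read 737 against 351 and 396, and EHD1, an ATPase of recycling endosomes, 1479 against 652 and 813. CAV2, of caveolae, read 365 in anti-MYCN PNA cells, 703 with mutated PNA and 602 in untreated cells.

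Lists of trafficking machinery lay near the median of all genes. Genes that sort enzymes to the lysosome had medians of 0.039 and 0.11 over 14 genes, with GGA3, an adaptor for mannose 6-phosphate receptors, the 1 gene 1.5-fold above both at 500 in anti-MYCN PNA cells, 329 with mutated PNA and 311 in untreated cells. Tethers and ESCRT genes had medians of −0.024 and 0.052 over 18 genes, 2 of them 1.5-fold above both controls and 2 below. Over all genes these shares were 8.27% and 7.37%. VPS39, a subunit of the tether that works with RAB7A, read 400 against 188 and 204, whereas VPS4B, an ATPase that takes ESCRT complexes apart, read 377 against 691 and 597. MTMR6, an endosomal phosphoinositide phosphatase, read 291 against 831 and 1214. Genes of the TFEB family and of mTORC1 at the lysosome had medians of −0.11 and 0.065 over 13 genes, none of them 1.5-fold from both. Among 4 galectin and damage-receptor genes the medians were 0.23 and 0.17. Of these 2 lay above both controls, 1 below and 1 between, where 47.9% of all genes were above and 37.6% below. LGALS1 read 17338 in anti-MYCN PNA cells, 14774 with mutated PNA and 13775 in untreated cells. TRIM16 read 443 against 358 and 299, and LGALS8, the 1 gene below both, 106 against 157 and 130.

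**Figure D5:**
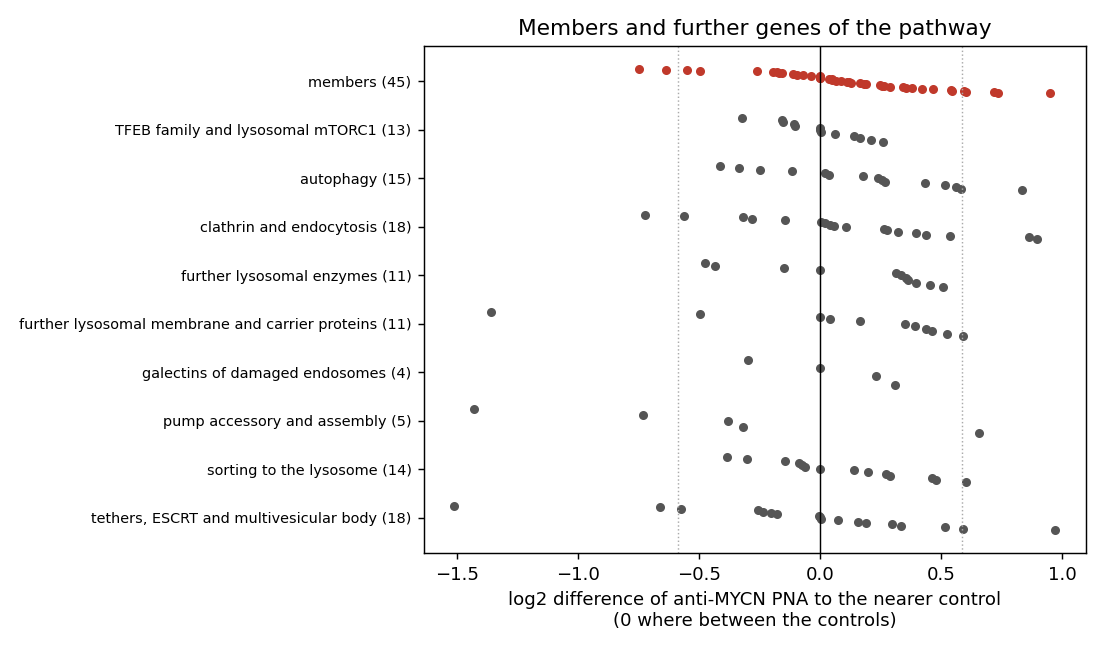
Log2 difference of anti-MYCN PNA cells to the nearer of the 2 controls, 1 point per measured gene, for the 45 members and the 9 lists of further pathway genes, with the number of measured genes in brackets; dotted lines mark 1.5-fold. OSTM1, DMXL1 and MTMR6 are the points furthest left.

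The comparison of mutated PNA with untreated cells asks what a PNA without the target sequence does at the same dose and time. The median log2 difference over the 45 members was −0.016, against 0.0007 over all genes. CTSD was the 1 member 1.5-fold higher with mutated PNA (2.22%, against 2.40% of all genes) and no member was 1.5-fold lower, against 2.27%. CTSD was followed by CLN3 at 0.58, whose other probe set gave −0.30, and by RAB5B at 0.36, and the lowest were CTSH at −0.46, CTSF at −0.32 and NEU1 at −0.22. CTSD read 199 with mutated PNA and 120 in untreated cells. Both shares are near the background. The comparison as a whole rests on the title of the untreated array: if its source name were right, both arrays would be mutated PNA and these would be differences within 1 condition.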

How the data were processed

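Total RNA of RH30 cells was measured on Affymetrix arrays, 1 array per condition. The deposited values are linear intensity signals of probe sets, for which the submitters' processing notes name MAS5 and GCOS, and their 2% trimmed mean was 500.2 on every array. Scanner files and detection calls were not used here. Of 22215 gene probe sets, 19064 name 1 gene in GEO's platform annotation, 1043 several and 2108 none; 19052 were matched to RefSeq symbols of GRCh38.p14 by Entrez identifier. Arrays were first brought to one 2% trimmed mean. A floor at the pooled 25th percentile (23.4) came next, then log2. The filter, a mean at or over the pooled 50th percentile (117.1), left 9899 probe sets, and a gene's brightest one stood for it, giving 6745 genes. "Against both controls" uses the smaller of the 2 log2 differences where both have 1 sign, and 0 otherwise.

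With 1 array per condition no test was made and no p-value is given. Signals are given for members 1.5-fold from both controls, for the brightest 3 and the outermost of each role and for the outermost between the controls; other members and up to 3 genes per further list follow, and CLCN7, BECN1, MITF, LGALS1, TFEB, TFE3 and second probe sets were named after their values were seen. The members and lists were chosen with earlier results of these data known. The fold rule was checked on simulated data. The scripts ran in Python 3.11.15 with pandas 2.3.3, numpy 2.4.6, matplotlib 3.10.9 and scipy 1.17.1.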

Additional observations from a re-analysis of the deposited data

How the results depend on the processing

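Across 17 results and 10 alternative settings, with a 3-fold threshold for 2 counts, 172 values were recomputed. Of these 127 kept their sign and moved by under 0.1 on the log2 scale, or by at most 1.5 times for a count, 18 medians changed sign whatever their size, and 27 moved further. Signals as deposited, quantile normalization and no floor left all their values among the 127, though under quantile normalization MCOLN1 joined the members 1.5-fold higher and ATP6V0A1 and CTSF left them, and no member was 3-fold from both controls. With each array scaled to the same median, 1 member was 1.5-fold higher (GAA) and 4 lower, and over all genes 3.84% were 1.5-fold higher and 13.7% lower, against 8.27% and 7.37%. Medians to mutated PNA and to untreated then became −0.053 and −0.079 over members, 0.034 and −0.043 over membrane proteins, 0.017 and 0.071 over cathepsins, 0.0005 and −0.17 over other hydrolases, −0.15 and −0.26 over the pump and 0.044 and −0.086 over endosomal genes. Relative to all genes the members' median moved little, 0.058 and 0.057 against 0.057 and 0.056. Without a filter 1 member was 2-fold higher and 8 were 1.5-fold higher (all genes 13.8%), and medians were 0.38 for cathepsins to mutated PNA, 0.027 for the pump to untreated and 0.11 and 0.26 for endosomal genes. With a filter at the 75th percentile, 1 of 28 members was 1.5-fold higher and 0 lower (all genes 4.5% and 6.8%). Medians there were 0.040 and 0.080 for cathepsins, −0.21 and −0.094 for other hydrolases, 0.11 for the pump to untreated and 0.11 and −0.038 for endosomal genes. A pseudocount of 50 left 3 members 1.5-fold higher and 1 lower (all genes 6.0% and 5.4%). The median over probe sets gave 0.33 for cathepsins to mutated PNA and −0.051 and −0.086 for endosomal genes. Without _x_at and _s_at probe sets 1 of 29 members (LAMP2) was 1.5-fold lower (3.4%, all genes 9.1%), and it was 2-fold lower too. As many as 4 were 1.5-fold higher (13.8%, all genes 8.1%). Medians there were 0.011 over members between the controls, 0.11 for the pump to untreated and 0.11 and −0.038 for endosomal genes. The V1 subunits alone turned to 0.12 and 0.11 with the filter at the 75th percentile. Scaling of the further gene lists was added after seeing the data. Counting all probe sets, 1 of 69 was 2-fold lower and 4 were 1.5-fold lower (5.8%, all probe sets 8.1%). At 1.5-fold 6 were higher (8.7%, all probe sets 8.1%). Medians there were −0.041 for the pump to mutated PNA and 0.061 and −0.060 for endosomal genes. For 2-fold counts outside the main setting no share over all genes was taken. The fewer or dimmer genes that a filter or suffix admits are part of these alternatives' construction; otherwise the cause was not tested. Dim genes limit the reading: in the lowest signal class the controls alone differed by up to 0.94 in 95% of genes. No paired analysis was possible because each condition has 1 array.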
